A study of Mus musculus with 51 samples.

Results

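Mature luminal cells (ML) from mouse mammary glands carrying the Y541S substitution of the estrogen receptor were compared after giredestrant and after vehicle. The 6 libraries were taken by their titles, 3 of Y541S ML cells with giredestrant and 3 of Y541S ML cells with vehicle, out of 51 in the whole series. The animals were raised to 6 months of age and all of them, those on vehicle included, carried hormone pellets of estradiol (E2) and progesterone (P4). Giredestrant was then given by mouth at 30 mg/kg daily for 4 days, and the other animals received the vehicle MCT over the same days. Cells were sorted by flow cytometry and the RNA of each sorted sample was sequenced in bulk. ML cells of WT and D542G glands, treated in the same way with 3 libraries for each genotype and treatment, were used to test where the Y541S cells differed. The labels do not say which libraries came from the same animal, whether animals were pooled, or how the substitution was introduced, so a p-value here covers only library-to-library spread, part of which may be technical.

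The estrogen receptor, encoded by Esr1, is a transcription factor that estradiol switches on, and mature luminal cells are the hormone-sensing cells of the mammary epithelium in which it is most active. Substitutions in its ligand-binding domain, such as Y541S, are known to hold the receptor in an active shape with little or no hormone. Giredestrant is a selective estrogen receptor degrader (SERD), an antagonist that binds the receptor and promotes loss of the protein. Secretion of milk proteins is a task of alveolar cells, which derive mainly from luminal progenitors (LP) under prolactin and the transcription factor STAT5.

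The giredestrant libraries held 21.4, 59.0 and 39.3 M counts (M, mega; libraries 1 to 3) and the vehicle libraries 30.3, 33.9 and 33.7 M, within the range of 21.4 to 60.1 M over all 51. On a principal component analysis of the 6 libraries the first component (45.3% of the variance) separated giredestrant from vehicle. The second (21.9%) ran from giredestrant 1 at -43.1 through giredestrant 2 at -8.6 to giredestrant 3 at 62.9, and from vehicle 2 at -50.3 through vehicle 1 at 7.5 to vehicle 3 at 31.5. The 15 mature luminal markers summed to 4948 to 7386 CPM (counts per M counts, scaled between libraries) with giredestrant and 5882 to 7731 CPM with vehicle. The 20 basal markers summed to 508.1 to 1101 CPM with giredestrant and 256.7 to 378.2 CPM with vehicle. In the sorted Basal libraries of Y541S glands they summed to 29770 to 42150 CPM (scaled over all 51 libraries), so the ML libraries stood apart from Basal. On that 51-library scale the mature luminal sum with giredestrant was 4819 to 7400 CPM in ML and 4183 to 6207 CPM in LP. It was 5157 to 7536 CPM in N, another sorted population, so it did not tell ML from LP or N. Esr1 itself (chr10:4611593-5005614, GRCm38) was at 89.5, 135 and 104 CPM with giredestrant and 85.2, 74.4 and 108 CPM with vehicle. The groups overlapped and the difference missed the threshold (log2 ratio 0.29 ± 0.34 SE, edgeR adjusted p = 0.564). Counts per gene measure the messenger RNA and not the receptor protein, and they do not show which allele was read.

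Giredestrant changed 4282 of the 17181 genes tested (24.9%), of which 2054 rose (12%) and 2228 fell (13%). The call was a Benjamini-Hochberg adjusted p under 0.05 in edgeR's quasi-likelihood test, and the median log2 ratio of all genes was 0.02. At least 1 log2 unit of change was found for 1037 of the genes that rose and 611 of those that fell, and at least 2 for 337 and 214. The giredestrant and vehicle libraries did not overlap for 6776 genes (39.4% of those tested), with giredestrant above for 3348 (19.5%) and below for 3428 (20%), and this held for 1928 of the genes that rose and 2108 of those that fell. The libraries did not respond alike: among the 1037 large rises the highest value lay in giredestrant 1 for 341 genes, in giredestrant 2 for 474 and in giredestrant 3 for 222, whereas among the 611 large falls the lowest lay in giredestrant 3 for 275, against 146 in giredestrant 1 and 190 in giredestrant 2. Fewer genes were called without giredestrant 2 (2395) or without vehicle 3 (2477), and with giredestrant 3 as the one giredestrant library left, assumed to vary like the other groups, 1238 were.

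Genes of milk rose, most of all in giredestrant 1. Of 14 milk protein genes 13 could be tested, and 9 rose and none fell (12% of all genes rose), with a median log2 ratio of 4.19. The size differed from library to library: the median of the 13 genes over the mean of the vehicle libraries was 5.38 log2 units in giredestrant 1, 2.69 in giredestrant 2 and 1.02 in giredestrant 3. Summed over the list, milk protein genes took 21560, 8235 and 3784 CPM in giredestrant 1 to 3, against 1862, 2039 and 2589 CPM in vehicle 1 to 3. Most of the vehicle sum was Mfge8, which encodes a protein of the milk fat globule membrane, at 2208, 2758 and 3427 CPM with giredestrant and 1687, 1614 and 2382 CPM with vehicle (log2 ratio 0.56 ± 0.30, adjusted p = 0.184). Csn3, the gene of kappa-casein, had no count in any of these libraries, and another annotated gene covers its whole span.

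**Figure D1:**
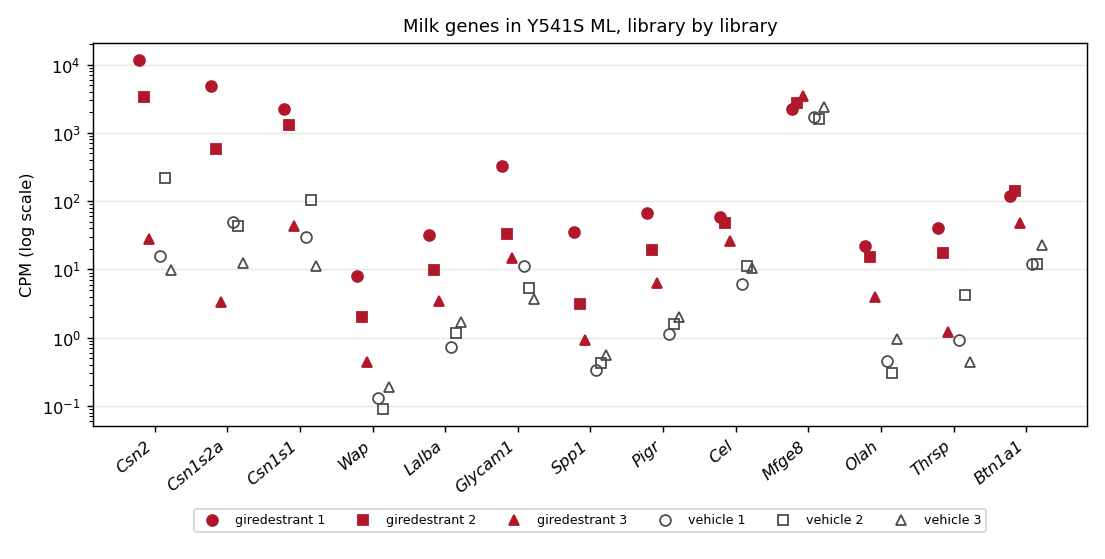
CPM (log axis) of 13 milk protein and milk fat genes in each Y541S ML library, giredestrant filled and vehicle open, with the symbol giving the library number. For Csn2, Csn1s2a and Csn1s1 giredestrant 1 and 2 lie above all vehicle libraries while giredestrant 3 lies among or below them, as for Csn2 with 11640, 3355 and 27.7 CPM.

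The caseins are the main proteins of milk and lie side by side on chromosome 5. Csn2, which encodes beta-casein, was at 11640, 3355 and 27.7 CPM with giredestrant and 15.6, 215 and 9.94 CPM with vehicle. Giredestrant 1 and 2 were above every vehicle library, but giredestrant 3 was below vehicle 2. The mean rise was 5.96 ± 1.99 log2 units (adjusted p = 0.0385). Csn1s2a, a gene of an alpha-S2-type casein, was at 4869, 588 and 3.33 CPM with giredestrant and 48.7, 42.5 and 12.3 CPM with vehicle, so that giredestrant 3 was the lowest of the 6 (log2 ratio 5.72 ± 1.88, adjusted p = 0.0361). Csn1s1, the alpha-S1-casein gene, was at 2254, 1322 and 43.0 CPM with giredestrant and 30.2, 103 and 11.4 CPM with vehicle, again with giredestrant 3 within the vehicle range (log2 ratio 4.64 ± 1.48, adjusted p = 0.0319). These 3 calls rest on the libraries that make up the mean. Without giredestrant 1 the adjusted p was 0.11 for Csn2, 0.19 for Csn1s2a (log2 ratio 3.10) and 0.0813 for Csn1s1; without giredestrant 2 it was 0.067, 0.0542 and 0.0689; without vehicle 1 it was 0.114, 0.087 and 0.0992; without vehicle 3 it was 0.121, 0.122 and 0.11; and without vehicle 2 it was 0.0898 for Csn1s2a.

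The stretches upstream of the start of Csn2 and Csn1s1 are printed as those of casein genes with a match, before the start, to the motif marked below. Their order of libraries does not single them out. Csn1s2a, Pigr, Cel and Olah also had it, and Cel and Olah held no match. They are 250 bases each from RefSeq (GRCm38.p6), 5′ to 3′ on the strand of the gene, chr5:87699426-87699675 on the minus strand for Csn2 and chr5:87665958-87666207 on the plus strand for Csn1s1. Capitals mark TTCNNNGAA, the letters of the motif that STAT factors bind, which reads the same on both strands.
Csn2: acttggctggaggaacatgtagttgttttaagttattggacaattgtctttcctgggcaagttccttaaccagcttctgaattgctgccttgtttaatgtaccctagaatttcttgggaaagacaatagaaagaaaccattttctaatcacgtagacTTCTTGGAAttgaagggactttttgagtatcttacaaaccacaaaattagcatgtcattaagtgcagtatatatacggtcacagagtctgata
Csn1s1: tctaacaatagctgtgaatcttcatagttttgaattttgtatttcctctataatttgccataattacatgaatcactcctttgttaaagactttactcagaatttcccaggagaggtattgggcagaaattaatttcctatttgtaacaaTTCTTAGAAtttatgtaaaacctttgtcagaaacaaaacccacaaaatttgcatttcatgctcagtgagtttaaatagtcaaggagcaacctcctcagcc
The match begins at position -93 from the start of Csn2 and at -100 from that of Csn1s1, and Csn1s2a has 1 at position 21 past its start. Windows of 300 bases, 250 before the start and 50 after it, hold this motif in 2726 of 32851 RefSeq promoters (8.3%). The windows of Pigr and Glycam1 also held 1 match each, and those of Wap, Lalba, Spp1, Cel, Ltf, Mfge8, Olah and Thrsp held none. These matches describe the letters and were not tested for binding.

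Pigr, Cel, Lalba, Wap, Spp1 and Glycam1 separated the groups in all libraries, whereas Ltf, Csn1s2b and Mfge8 did not. Pigr, whose product carries immunoglobulin A into milk, was at 67.2, 19.0 and 6.40 CPM with giredestrant and 1.12, 1.59 and 2 CPM with vehicle (log2 ratio 4.29 ± 0.77, adjusted p = 0.00156). Cel, the gene of the bile salt-stimulated lipase, was at 59.2, 48.0 and 26.3 CPM with giredestrant and 6.11, 11.4 and 10.5 CPM with vehicle (log2 ratio 2.25 ± 0.42, adjusted p = 0.00189). Both kept the order giredestrant 1, 2, 3, as Csn2, Csn1s2a and Csn1s1 did, yet here giredestrant 3 was above every vehicle library. Lalba, the alpha-lactalbumin gene needed for milk sugar, was at 31.9, 9.95 and 3.40 CPM with giredestrant and 0.726, 1.16 and 1.69 CPM with vehicle (log2 ratio 3.65 ± 1.02, adjusted p = 0.0168). Wap, the whey acidic protein gene, was at 7.94, 2 and 0.433 CPM with giredestrant, and at 0.132, 0.0915 and 0.188 CPM with vehicle, which is 3 to 6 counts a library (log2 ratio 4.61 ± 1.22, adjusted p = 0.013). Neither call held without giredestrant 1 (adjusted p = 0.0818 for Lalba and 0.0781 for Wap), and that of Lalba did not hold without vehicle 1 (0.0635) or vehicle 2 (0.0534). Spp1, the gene of osteopontin, had 34.8, 3.10 and 0.934 CPM with giredestrant and 0.33, 0.427 and 0.563 CPM with vehicle (log2 ratio 4.85 ± 1.55, adjusted p = 0.0324). Its call fell away without giredestrant 1 (log2 ratio 2.19, adjusted p = 0.271), vehicle 1 (0.097), vehicle 2 (0.089) or vehicle 3 (0.0908). Glycam1, a secreted mucin-like protein of milk, was at 324, 32.5 and 14.6 CPM with giredestrant and 11.3, 5.28 and 3.69 CPM with vehicle, without overlap, and was not called (log2 ratio 4.19 ± 1.76, adjusted p = 0.0947). Ltf, the gene of lactoferrin, was highest in library 3 of both groups, at 55.5, 91.5 and 226 CPM with giredestrant and 53.7, 41.2 and 149 CPM with vehicle (log2 ratio 0.61 ± 0.65, adjusted p = 0.527). Csn1s2b, a further casein gene, was low throughout, at 0.27 to 1.24 CPM with giredestrant and 0.70 to 4.49 CPM with vehicle (adjusted p = 0.189). Trf, the transferrin gene, was called as higher (log2 ratio 1.34 ± 0.30, adjusted p = 0.00562), but another annotated gene covers 99.5% of its span and its counts are uncertain. Over the list, 3 members were called as higher without giredestrant 1, 4 without vehicle 1, 5 without vehicle 3 and 0 with giredestrant 3 as the only giredestrant library, where Pigr (adjusted p = 0.0907) and Cel (0.0956) lost the call as well.

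Of the 24 genes of milk fat synthesis, milk sugar and secretion, 8 rose and 3 fell, against 12% and 13% of all genes. Their median log2 ratio was 0.38, or 0.78, 0.53 and 0.03 in giredestrant 1 to 3. Olah, the thioesterase that ends fatty acid chains at medium length, was at 22.1, 15.3 and 3.90 CPM with giredestrant and 0.462, 0.305 and 0.969 CPM with vehicle. It followed the library order of Csn2 without overlap between the groups, and its call held with any 1 library left out (log2 ratio 4.56 ± 0.65, adjusted p = 4.06e-04). Thrsp, a regulator of fatty acid synthesis, was at 40, 17.2 and 1.21 CPM with giredestrant and 0.924, 4.24 and 0.438 CPM with vehicle, with giredestrant 3 below vehicle 2 (log2 ratio 3.37 ± 1.08, adjusted p = 0.0329), and its call was lost without giredestrant 1 (0.143), giredestrant 2 (0.0664), vehicle 1 (0.104) or vehicle 3 (0.112). Btn1a1, the gene of butyrophilin on the milk fat globule, was at 118, 139 and 47.1 CPM with giredestrant and 11.8, 12.1 and 22.8 CPM with vehicle (log2 ratio 2.70 ± 0.55, adjusted p = 0.00308). Acly, the enzyme that supplies acetyl-CoA for fatty acids, had the most counts of the list in giredestrant 1, at 965, 878 and 586 CPM with giredestrant and 560, 687 and 601 CPM with vehicle, and missed the threshold (log2 ratio 0.39 ± 0.19, adjusted p = 0.135). The list held 5 rises without giredestrant 1, and 1 fall without giredestrant 2 or giredestrant 3. Of 14 genes of prolactin signalling and STAT5, 2 rose (Nfib and Erbb4) and 2 fell (Stat5a and Socs2), near the 12% and 13% over all genes, with 1 rise without giredestrant 2 or vehicle 2. Stat5a, which encodes the factor itself, was at 486, 220 and 150 CPM with giredestrant and 685, 631 and 780 CPM with vehicle, lower in all giredestrant libraries and lowest in giredestrant 3 (log2 ratio -1.29 ± 0.36, adjusted p = 0.0168). Without giredestrant 2, giredestrant 3 or vehicle 3 its adjusted p was 0.0812, 0.0568 and 0.0627. Socs2, a target and inhibitor of the same pathway, was at 116, 90.5 and 40.4 CPM with giredestrant and 227, 275 and 136 CPM with vehicle (log2 ratio -1.37 ± 0.33, adjusted p = 0.008). Erbb4, a receptor tyrosine kinase needed for lactation, was at 51.3, 63.1 and 24.3 CPM with giredestrant and 16.2, 13.4 and 14.8 CPM with vehicle (log2 ratio 1.64 ± 0.37, adjusted p = 0.00557).

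In the other sorted populations of Y541S glands giredestrant 3 was again the lowest for these caseins, while the order of 1 and 2 varied. The populations were taken from the titles, since another label field names every sample as mature luminal, and CPM are scaled here over all 51 libraries. Csn2 was at 10190, 6790 and 54.2 CPM in LP libraries 1 to 3 with giredestrant, at 2951, 758 and 8.17 CPM in the libraries of N, a further sorted population that the labels list beside the others, and at 1336, 980.1 and 10.8 CPM in Basal libraries. Csn1s1 was at 2350, 2469 and 58.8 CPM in LP, 512.5, 221 and 14.7 CPM in N, and 272.7, 329.8 and 5.67 CPM in Basal, with library 2 above library 1 in LP and Basal. The milk protein sum in giredestrant 1 to 3 was 22520, 15710 and 4791 CPM in LP, 6405, 2357 and 1343 CPM in N and 5792, 5873 and 3788 CPM in Basal, against 3320, 2923 and 4293 CPM in Basal with vehicle. In Basal the sum of giredestrant 2 was above that of 1, and that of 3 lay within the vehicle range. Pnmt, which encodes the last enzyme of adrenaline synthesis, had 199, 59.2 and 0.0457 CPM in ML, 84.5, 8.10 and 0.0679 CPM in LP and 7.54, 2.89 and 0.0203 CPM in Basal with giredestrant. Upk3a, a urothelial plaque protein, was highest in giredestrant 3 in every population, with 14.8, 21.3 and 117 CPM in ML, 24.3, 6.91 and 139.6 CPM in LP, 9.47, 27.5 and 292 CPM in N and 2, 3.95 and 44.9 CPM in Basal. Whether libraries of 1 number came from the same animals is not stated in the labels, and the part of the animals in these orders was not tested.

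**Figure D2:**
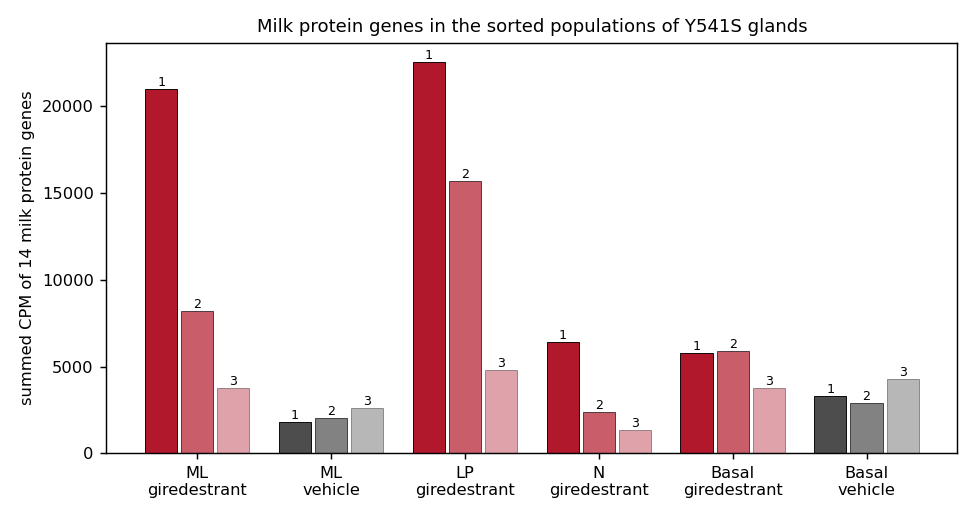
Summed CPM of the 14 milk protein genes (51-library scale) in each library of the Y541S groups, numbered as in the labels, giredestrant in red and vehicle in grey. Among the giredestrant libraries of ML, LP and N the sum was highest in library 1 and lowest in library 3, with 21000 and 3791 CPM in ML.

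Genes that the estrogen receptor is known to drive moved in both directions. Of 23 tested, 6 rose and 7 fell (12% and 13% of all genes), with a median log2 ratio of -0.45. Greb1, a cofactor and classical target of the receptor, was at 36.0, 13.5 and 4.06 CPM with giredestrant and 54.4, 56.0 and 57.3 CPM with vehicle. All giredestrant libraries were lower, and giredestrant 3 was the lowest (log2 ratio -1.67 ± 0.51, adjusted p = 0.0257). Without giredestrant 1 its log2 ratio was -2.66, and without giredestrant 2, vehicle 1 or vehicle 3 its adjusted p was 0.106, 0.0548 and 0.0676. Ptpn5, a tyrosine phosphatase gene on the list, was at 21.6, 12 and 1.46 CPM with giredestrant and 87.2, 116 and 216 CPM with vehicle, in the same order (log2 ratio -3.60 ± 0.76, adjusted p = 0.00393). Stc2, the gene of the secreted glycoprotein stanniocalcin 2, was at 99.1, 46.9 and 52.6 CPM with giredestrant and 417, 382 and 602 CPM with vehicle (log2 ratio -2.82 ± 0.42, adjusted p = 5.30e-04). For Stc2 the highest giredestrant value (99.1 CPM) lay far below the lowest vehicle value (382 CPM). Ccn5, a matricellular protein gene, was at 6.47, 4.63 and 27.3 CPM with giredestrant and 181, 37.8 and 222 CPM with vehicle (log2 ratio -3.51 ± 0.71, adjusted p = 0.00289). Pgr, the progesterone receptor gene, was at 101, 91.0 and 46.7 CPM with giredestrant and 161, 167 and 168 CPM with vehicle (log2 ratio -1.06 ± 0.35, adjusted p = 0.0384). Its call was lost without giredestrant 2 (0.0753), giredestrant 3 (0.132), vehicle 1 (0.0802), vehicle 2 (0.0759) or vehicle 3 (0.0988).

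Among list members that rose, Igfbp4, which binds insulin-like growth factors, was at 51.5, 41.5 and 22.5 CPM with giredestrant and 14.7, 13.7 and 8.79 CPM with vehicle (log2 ratio 1.63 ± 0.37, adjusted p = 0.00594). Ccnd1, the gene of cyclin D1, was at 243, 283 and 614 CPM with giredestrant and 218, 227 and 216 CPM with vehicle. Its rise of 0.78 ± 0.24 log2 units (adjusted p = 0.029) lay mostly in giredestrant 3, without which it was 0.25 (adjusted p = 0.195), and it was also lost without vehicle 1 (0.0653), vehicle 2 (0.0624) or vehicle 3 (0.0736). Without vehicle 3 the list held 3 rises. GGTCA and TGACC with 3 bases between them are the letters of a full estrogen response element, which reads the same on both strands. They occur in 23 of the 32851 promoter windows (0.07%) and were in none of those of Greb1, Stc2, Pgr, Ptpn5 or Igfbp4. At that share no match in so few windows was the likely outcome, and windows of 300 bases leave out sites farther away. The missing matches therefore do not show that these genes lack such an element. Receptors, cofactors and luminal transcription factors formed a list of 15, with 7 rises (12% of all genes rose) and 1 fall (13% fell), that of Pgr. Ncor1, a corepressor of nuclear receptors, was at 137, 183 and 150 CPM with giredestrant and 81.3, 79.2 and 72.1 CPM with vehicle (log2 ratio 1.02 ± 0.15, adjusted p = 4.88e-04). Ncoa2, a coactivator, was at 92.5, 110.0 and 66.1 CPM with giredestrant and 44.3, 47.5 and 34.2 CPM with vehicle (log2 ratio 1.09 ± 0.19, adjusted p = 0.0013). Foxa1, the factor that opens chromatin for the receptor, was at 217, 231 and 210 CPM with giredestrant and 303, 298 and 377 CPM with vehicle, lower in each library yet not called (log2 ratio -0.58 ± 0.37, adjusted p = 0.272).

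**Figure D3:**
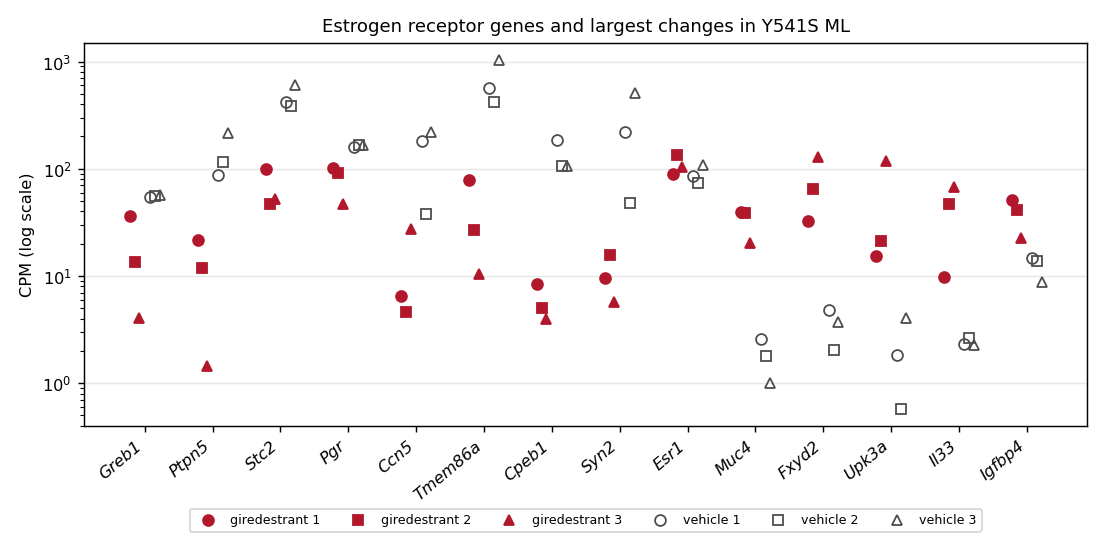
CPM (log axis) of 14 genes of the estrogen receptor response and of the largest changes in each Y541S ML library, giredestrant filled and vehicle open, with the symbol giving the library number. Cpeb1 and Stc2 are low in all 3 giredestrant libraries, whereas Greb1 and Ptpn5 step down to 4.06 and 1.46 CPM in giredestrant 3.

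Several genes fell by more than 4 log2 units. Groups that did not overlap were a condition for naming the largest falls, so their separation here is no result. Cpeb1 (chr7:81347026-81455465), which encodes a protein that controls the poly(A) tails of messenger RNAs, was at 8.49, 5 and 3.99 CPM with giredestrant and 185, 107 and 106 CPM with vehicle. All giredestrant libraries lay far below the vehicle group (log2 ratio -4.53 ± 0.36, adjusted p = 1.89e-05). Tmem86a, an enzyme of plasmalogen breakdown, was at 78.6, 26.9 and 10.4 CPM with giredestrant and 572, 416 and 1032 CPM with vehicle (log2 ratio -4.13 ± 0.60, adjusted p = 4.55e-04). Syn2, a synaptic vesicle protein gene, was at 9.50, 15.6 and 5.67 CPM with giredestrant and 219, 47.7 and 510 CPM with vehicle (log2 ratio -4.65 ± 0.69, adjusted p = 5.22e-04). Vehicle 2 was the lowest of its group for Syn2, and still above all giredestrant libraries. Irf4, a transcription factor known from lymphocytes, was at 1.56, 0.422 and 0.365 CPM with giredestrant and 40.5, 12.1 and 14.8 CPM with vehicle (log2 ratio -4.96 ± 0.71, adjusted p = 4.36e-04). Mchr1, a receptor for melanin-concentrating hormone, was at 0.551, 0.5 and 0.479 CPM with giredestrant and 11.1, 4 and 29.2 CPM with vehicle (log2 ratio -4.86 ± 0.70, adjusted p = 4.55e-04). Tnxb, an extracellular matrix glycoprotein gene, and Bpifc, a gene of the lipid-binding BPI family, fell with log2 ratios of -4.80 and -4.20. Grm8, a glutamate receptor gene, Pcp4, a calmodulin regulator, and Golga7b had log2 ratios of -4.19, -4.49 and -5.82. Kbtbd13 had the largest log2 ratio of these, -6.55 ± 1.12 (adjusted p = 0.00116), from 7, 4 and 1 counts with giredestrant and 617, 104 and 234 counts with vehicle.

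Genes outside the milk lists rose too, those described here by at most 4.57 log2 units, below Csn2 (5.96) and Csn1s2a (5.72). Muc4 (chr16:32735886-32782391), a membrane mucin, was at 39.8, 39.1 and 20.1 CPM with giredestrant and 2.61, 1.80 and 1 CPM with vehicle (log2 ratio 4.19 ± 0.51, adjusted p = 1.83e-04). Fxyd2, a regulator of the sodium pump, was at 32.4, 65.4 and 129 CPM with giredestrant and 4.82, 2.04 and 3.75 CPM with vehicle (log2 ratio 4.42 ± 0.64, adjusted p = 4.55e-04). Upk3a was at 15.2, 21.4 and 117 CPM with giredestrant and 1.82, 0.58 and 4.10 CPM with vehicle (log2 ratio 4.57 ± 1.06, adjusted p = 0.00646). For Fxyd2 and Upk3a giredestrant 3 was the highest, the reverse of the milk genes. No giredestrant library overlapped the vehicle group, which was a condition for naming the largest rises. Il33, an alarm cytokine stored in nuclei, was at 9.82, 47.2 and 67.4 CPM with giredestrant and 2.31, 2.62 and 2.28 CPM with vehicle (log2 ratio 4.11 ± 0.69, adjusted p = 0.00107). Has2, a hyaluronan synthase, was at 6.24, 9.63 and 27.1 CPM with giredestrant and 0.462, 1.13 and 0.375 CPM with vehicle (log2 ratio 4.44 ± 0.79, adjusted p = 0.00144). With giredestrant, Has2 was at 400, 383 and 331 CPM in Basal libraries 1 to 3 of Y541S glands (51-library scale). On that scale Il33 was at 228, 1170 and 1923 CPM in N, 7.51 to 46.4 CPM in LP and 12.7 to 66.5 CPM in Basal. The part of other cells in the rises of Il33 and Has2 was not tested. In the junction and mucin list of 13 genes 5 rose and 2 fell, against 12% and 13% of all genes. Cldn1, a tight junction claudin, was at 167, 215 and 219 CPM with giredestrant and 68.3, 74.1 and 47.6 CPM with vehicle (log2 ratio 1.66 ± 0.28, adjusted p = 0.00107), while Cldn8, another claudin, was at 98.0, 95.5 and 88.1 CPM with giredestrant and 266, 221 and 225 CPM with vehicle (log2 ratio -1.34 ± 0.31, adjusted p = 0.0066). The list held 3 rises and 4 falls without giredestrant 3, and 1 fall without giredestrant 2 or vehicle 3.

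Of the 15 mature luminal markers none rose and 2 fell (Pgr and Prom1), near the 13% of all genes that fell, with a median log2 ratio of -0.47. Krt18, a keratin of all luminal cells, was at 2375, 3061 and 3957 CPM with giredestrant and 2359, 2688 and 3028 CPM with vehicle (log2 ratio 0.22 ± 0.17, adjusted p = 0.377). The number of falls was 0 without giredestrant 2, vehicle 1 or vehicle 3 and 1 without giredestrant 1 or 3. Of the 12 luminal progenitor markers tested 5 rose and none fell, against 12% and 13% of all genes. Their median was 0.80, and 0.51, 0.81 and 1.27 in giredestrant 1 to 3, the reverse of the milk genes. Their sum was 2420, 3023 and 4101 CPM with giredestrant, against 2271, 1241 and 3112 CPM with vehicle, so the groups overlapped, and it was 3823 to 5738 CPM in sorted LP with giredestrant (LP CPM scaled over all 51 libraries). Cd55, a surface regulator of complement, was at 32.2, 52.4 and 46.5 CPM with giredestrant and 23.5, 13.1 and 25.6 CPM with vehicle (log2 ratio 1.08 ± 0.23, adjusted p = 0.00405). The rises on the progenitor list numbered 2 without giredestrant 2 or vehicle 2 and 3 without giredestrant 3 or vehicle 1.

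Markers of cells outside the luminal lineage rose as well, at low levels. Of 19 basal markers 10 rose and none fell, against 12% and 13% of all genes, with a median log2 ratio of 1.98. Krt14, a keratin of basal cells, was at 103, 199 and 74.7 CPM with giredestrant and 18.8, 15.1 and 14.5 CPM with vehicle (log2 ratio 2.96 ± 0.64, adjusted p = 0.00437). Col17a1, a collagen of hemidesmosomes, was at 16.2, 28.9 and 7.75 CPM with giredestrant and 1.75, 2.53 and 1.03 CPM with vehicle (log2 ratio 3.31 ± 0.69, adjusted p = 0.00348). Both were highest in giredestrant 2, which also had the highest basal sum (907.6, 1101 and 508.1 CPM in giredestrant 1 to 3). Without giredestrant 2 the list held 5 rises and without vehicle 3 it held 6. In bulk libraries more cells of a type and more RNA per cell cannot be told apart.

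Of 14 endothelial markers 10 rose and none fell, with a median of 1.85. Over all genes 12% rose and 13% fell, against which the counts of this paragraph are to be read. The endothelial rises numbered 8 without vehicle 3 and no fewer without any other library. Kdr, the receptor for vascular endothelial growth factor, was at 28.1, 20.1 and 15.6 CPM with giredestrant and 5.41, 4.88 and 3.47 CPM with vehicle (log2 ratio 2.21 ± 0.37, adjusted p = 0.00103). Pecam1, a junction protein of endothelium, was at 61.1, 54.2 and 37.1 CPM with giredestrant and 15.1, 8.88 and 9.88 CPM with vehicle (log2 ratio 2.17 ± 0.38, adjusted p = 0.00133). Selp, the gene of P-selectin and not on the list, was at 77.4, 40.2 and 44.7 CPM with giredestrant and 5.65, 3.17 and 4 CPM with vehicle (log2 ratio 3.66 ± 0.65, adjusted p = 0.00145). These genes were highest in giredestrant 1, and no giredestrant library overlapped the vehicle group. Vwf, the von Willebrand factor gene and the list member with the most counts in giredestrant 1, was not called, at 320, 285 and 59.9 CPM with giredestrant and 280, 207 and 357 CPM with vehicle (log2 ratio -0.35 ± 0.47, adjusted p = 0.636). The endothelial sum was 397.4 to 887.8 CPM with giredestrant and 316.6 to 504.4 CPM with vehicle, and overlapped. Pericyte markers gave 6 rises of 8 and fibroblast markers 5 of 12, with no fall in either. Rgs5, a pericyte regulator of G protein signals, was at 29.6, 35.6 and 23.1 CPM with giredestrant and 7.96, 5.98 and 5 CPM with vehicle (log2 ratio 2.22 ± 0.45, adjusted p = 0.00316). The pericyte count was 4 without giredestrant 1 and no lower without any other library. The fibroblast count was 1 without giredestrant 2, 2 without vehicle 1 and 3 without vehicle 2 or vehicle 3. The pericyte sum was 126.3 to 234.7 CPM with giredestrant and 156.6 to 164.4 CPM with vehicle, and the fibroblast sum 302.0 to 364.5 CPM and 153.9 to 281.8 CPM. Of 12 immune markers tested 1 rose (Cd74, which was called without giredestrant 1 and otherwise not when a library was left out), with a sum of 84.1 to 240.1 CPM with giredestrant and 38.5 to 63.4 CPM with vehicle, and 2 to 4 of the 15 genes on the list at 0 counts with giredestrant and 2 with vehicle. No endothelial, pericyte or fibroblast marker had 0 counts in a giredestrant library, and 1 basal marker had 0 counts in all 6 libraries. The part of such cells in the results was not tested.

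**Figure D4:**
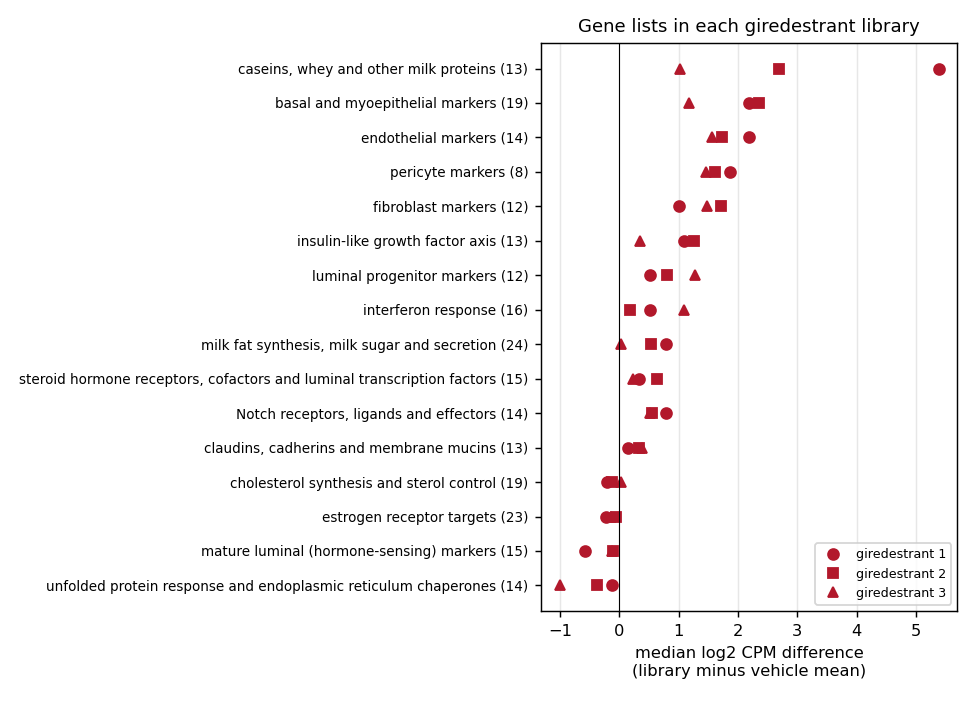
Median log2 CPM difference of 16 gene lists (tested members in brackets) in each giredestrant library from the mean of the 3 vehicle libraries. The milk protein list spreads widest, with 5.38, 2.69 and 1.02 in giredestrant 1 to 3, and the progenitor and interferon lists are highest in giredestrant 3.

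Of 14 genes of protein folding in the endoplasmic reticulum 6 fell and none rose, against 13% and 12% of all genes. Their median log2 ratio was -0.48, or -0.12, -0.38 and -1 in giredestrant 1 to 3. Sdf2l1, a chaperone cofactor, was at 62.0, 66.3 and 47.8 CPM with giredestrant and 163, 146 and 213 CPM with vehicle (log2 ratio -1.57 ± 0.27, adjusted p = 0.00136). Calr, the calcium-binding chaperone calreticulin, was at 1038, 983 and 744 CPM with giredestrant and 1446, 1559 and 1502 CPM with vehicle (log2 ratio -0.70 ± 0.15, adjusted p = 0.00343). Both groups were tight and separate. Hspa5, the main chaperone of this compartment, was at 2938, 2337 and 1802 CPM with giredestrant and 1739, 2239 and 1913 CPM with vehicle (log2 ratio 0.26 ± 0.18, adjusted p = 0.304). Without vehicle 3 the list held 3 falls.

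Of 16 interferon response genes 4 rose and none fell, against 12% and 13% of all genes, with a median of 0.75. Ifit1, an antiviral RNA-binding protein, was at 20.4, 15.8 and 30.7 CPM with giredestrant and 5.94, 6.53 and 3.88 CPM with vehicle (log2 ratio 2.03 ± 0.42, adjusted p = 0.00331). Irf7, a transcription factor of the response, was at 39.0, 28.1 and 62.7 CPM with giredestrant and 17.7, 13.9 and 17.9 CPM with vehicle (log2 ratio 1.39 ± 0.33, adjusted p = 0.00669). Giredestrant 3 was highest for both. Of 14 Notch genes 4 rose, with Heyl, a target of Notch, at 16.1, 34.5 and 30.9 CPM with giredestrant and 7.30, 6.22 and 6.75 CPM with vehicle (log2 ratio 2.01 ± 0.29, adjusted p = 4.85e-04). Of 14 genes of the epidermal growth factor family 2 rose and 2 fell, near the 12% and 13% over all genes. Egfr, the receptor, was at 58.8, 82.7 and 70.8 CPM with giredestrant and 30.4, 21.3 and 34.0 CPM with vehicle (log2 ratio 1.31 ± 0.25, adjusted p = 0.00235). The genes that fell were those of its fellow receptors Erbb2 and Erbb3, and neither was called without vehicle 1 and 1 of them without giredestrant 2 or vehicle 3.

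Of 19 cholesterol genes 2 rose and 3 fell, near the 12% and 13% over all genes, against which the other counts of this paragraph are to be read. The falls numbered 1 without giredestrant 2 or vehicle 3, and the rises 1 without giredestrant 2 and 4 without giredestrant 3. Of 20 mitosis genes 2 rose and 1 fell, with a median of -0.23. Cenpf, a kinetochore protein, was at 22.0, 21.8 and 28.1 CPM with giredestrant and 5.32, 8.33 and 8.29 CPM with vehicle (log2 ratio 1.71 ± 0.39, adjusted p = 0.00593), whereas Top2a, a topoisomerase of dividing cells, was at 86.8, 83.4 and 140 CPM with giredestrant and 72.1, 97.0 and 87.4 CPM with vehicle (log2 ratio 0.27 ± 0.42, adjusted p = 0.679). Leaving out any vehicle library, giredestrant 2 or giredestrant 3 left 1 rise on the mitosis list, and its fall was lost without giredestrant 1, giredestrant 2, vehicle 1 or vehicle 3. Of 14 replication genes 1 rose (none without giredestrant 1, giredestrant 3, vehicle 2 or vehicle 3), and of 12 genes of G1 control 4 rose (2 without giredestrant 2 or vehicle 1 and 1 without vehicle 3). The insulin-like growth factor axis had 7 rises of 13, and 3 or 4 when giredestrant 1, giredestrant 2 or any vehicle library was left out. Transition factors between epithelium and mesenchyme had 4 rises and 1 fall of 12, with 2 rises without giredestrant 1, giredestrant 2 or vehicle 3. Immediate early and heat shock genes had 3 falls of 14, and at most 1 without giredestrant 1, giredestrant 2, vehicle 2 or vehicle 3. Wnt genes had 2 rises of 16, skeletal muscle markers 2 of 5 and squamous genes 1 of 12, and each of these counts was lower without giredestrant 1. None of 11 progesterone and glucocorticoid targets, 5 adipocyte markers or 4 red cell markers was called.

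Some genes varied widely between the giredestrant libraries. Of 5674 genes with at least 50 CPM in 1 of the 6 libraries, 51 spanned at least 3 log2 units among the giredestrant libraries and 40 did so among the vehicle libraries. Of the 51, the highest value lay in giredestrant 1 for 32 and the lowest in giredestrant 3 for 40. In the vehicle group the highest lay in vehicle 2 for 22 of the 40. Pnmt was at 204, 59.5 and 0.0456 CPM with giredestrant and 102, 85.3 and 6.32 CPM with vehicle (log2 ratio 0.44 ± 1.32, adjusted p = 0.839). Lgi2, a secreted protein gene known from neurons, was at 88.5, 12.2 and 0.365 CPM with giredestrant and 9.87, 11.1 and 2.78 CPM with vehicle (log2 ratio 2.08 ± 1.09, adjusted p = 0.181). Fgb, the gene of the fibrinogen beta chain, ran the other way, at 0.0459, 2.06 and 50.5 CPM with giredestrant and 1.85, 0 and 4.35 CPM with vehicle (log2 ratio 3.09 ± 1.39, adjusted p = 0.118). Calca, a progesterone target that encodes calcitonin and its related peptide, was at 3192, 4632 and 563 CPM with giredestrant and 687, 1020 and 227 CPM with vehicle (log2 ratio 2.12 ± 0.93, adjusted p = 0.107).

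The giredestrant effect in Y541S ML differed from that in WT ML for 994 genes (5.79%), by the difference of the effects in the same fit. It was more positive in Y541S for 684 (3.98%) and more negative for 310 (1.80%), and the median difference over all genes was -0.05. The count depended on the libraries: it was 518 without WT vehicle 1, 519 without Y541S giredestrant 1, 555 without WT giredestrant 1, 563 without Y541S vehicle 1, 568 without WT vehicle 2, 616 without Y541S vehicle 2, 625 without WT giredestrant 2 and 628 without Y541S giredestrant 2, and DESeq2 called 1895. In WT 5864 genes were called (34.1%, with 17.1% higher and 17% lower) and in D542G 3546 (20.6%, with 9.34% higher and 11.3% lower). Greb1 fell by 1.67 log2 units in Y541S and had a log2 ratio of -6.76 in WT, where it was at 1.63 ± 0.76 CPM with giredestrant and 178 ± 28.0 CPM with vehicle (SD, n = 3 libraries), a difference of 5.09 ± 0.76 log2 units (adjusted p = 0.00218). Ptpn5 had -3.60 in Y541S and -8.66 in WT (difference 5.06 ± 1.08, adjusted p = 0.0147). The difference for Stc2 missed the threshold, with -2.82 in Y541S and -3.51 in WT (difference 0.69 ± 0.56, adjusted p = 0.505).

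Of the 13 milk protein genes 1 differed from WT, near the 5.79% over all genes. In WT 1 of these genes rose and 1 fell, against 17.1% and 17% of all genes, with a median log2 ratio of 0.32. In Y541S 9 rose, with a median of 4.19. The effects on Csn1s2a differed by 8.69 log2 units and were not called (edgeR adjusted p = 0.0739). With an SE of 3.91 for Csn2, a missed threshold does not show that the effects were alike. Pigr had a log2 ratio of 4.29 in Y541S and -0.52 in WT (difference 4.81 ± 1.02, adjusted p = 0.0147). For Csn2 the effects were 5.96 and 3.39, with WT at 2.15 ± 2.48 CPM with giredestrant and 0.195 ± 0.185 CPM with vehicle (SD, n = 3), and the difference of 2.58 ± 3.91 missed the threshold (adjusted p = 0.74). Of the endothelial list 7 of 14 differed, all more positive in Y541S, such as Kdr (2.21 in Y541S and -0.45 in WT, difference 2.66 ± 0.51, adjusted p = 0.00861) and Pecam1 (2.17 and -0.33, difference 2.50 ± 0.52, adjusted p = 0.0132). Effects were also more positive for 7 of 23 estrogen receptor targets, with 1 more negative, and for 7 of 19 cholesterol genes. The same held for 6 of 24 milk fat genes and 4 of 14 protein folding genes. Over all genes 3.98% were more positive and 1.80% more negative. Hspa5 fell in WT (log2 ratio -1.26) and had 0.26 in Y541S (difference 1.53 ± 0.25, adjusted p = 0.00363). Nrxn3, a synaptic adhesion gene, fell in Y541S and rose in WT, with log2 ratios of -4.03 and 4.59 (difference -8.63 ± 1.28, adjusted p = 0.00218). Its level was 1.19, 1.56 and 2.07 CPM with giredestrant and 14.8, 46.9 and 18.9 CPM with vehicle in Y541S, and 125 ± 153 CPM with giredestrant and 5.19 ± 3.11 CPM with vehicle in WT (SD, n = 3). Kcnk16, a potassium channel gene, was at 6.11, 6.18 and 2.98 CPM with giredestrant and 1.55, 3.45 and 0.813 CPM with vehicle in Y541S, where the groups overlapped, and at 13.9 ± 3.67 CPM with giredestrant and 0.0144 ± 0.025 CPM with vehicle in WT.

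**Figure D5:**
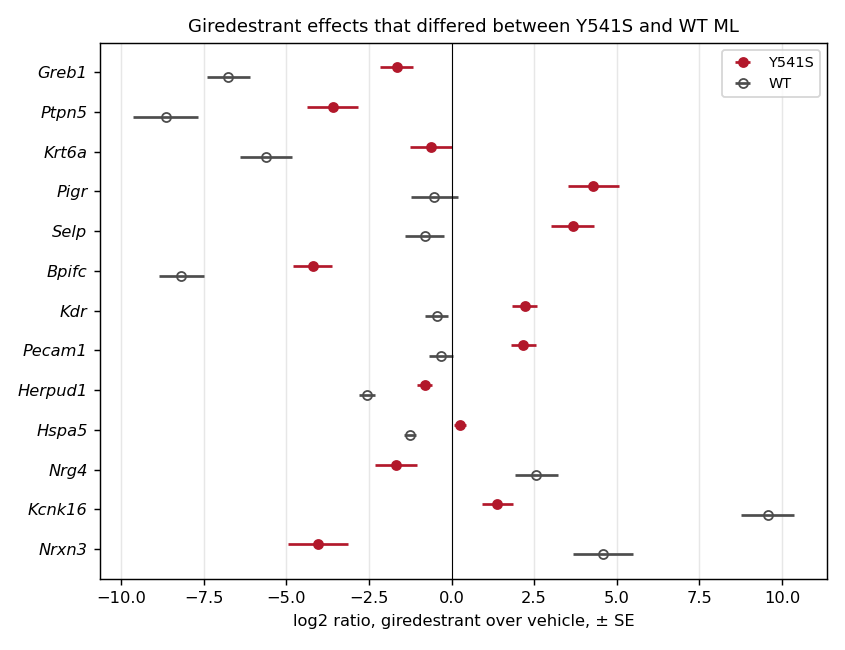
Log2 ratio of giredestrant over vehicle ± SE in Y541S ML (filled) and WT ML (open) for 13 genes whose effects differed between the genotypes. Greb1 lies at -1.67 in Y541S and -6.76 in WT, and Nrxn3 has opposite signs in the 2 genotypes, -4.03 in Y541S and 4.59 in WT.

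Between Y541S and D542G ML no gene (0 of 17181) had a different giredestrant effect in edgeR at the same threshold, where 2820 genes (16.4%) had an unadjusted p under 0.05 and DESeq2 called 635. Milk protein genes in D542G gave 4 rises of 13 (9.34% of all genes rose) and a median log2 ratio of 1, against 9 rises and 4.19 in Y541S. The D542G libraries varied widely as well. Csn2 was at 2.32, 44.2 and 833 CPM with giredestrant and 74.8, 28.3 and 39.9 CPM with vehicle there (51-library scale). Greb1 had -1.67 in Y541S and -3.73 in D542G, and Upk3a 4.57 and 5.04. Of the mitosis list 1 of 20 genes fell in Y541S (13% of all genes) and 17 fell in D542G (11.3% of all genes). These are calls and ratios within each genotype, and none of these genes passed the edgeR test of the difference. Without giredestrant 3 of Y541S the number of genes that differed was 117, without giredestrant 3 of D542G it was 14, and without vehicle 1 of Y541S it was 1.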

How the data were processed

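RNA of sorted mammary cells was sequenced in bulk, and 6 of the 51 libraries form the comparison described. The deposited tables give, for each library, a whole-number count of reads per gene and an RPKM value, which fits that count divided by the gene width and by a library total above the sum of the deposited counts; RPKM values were not used for tests. The width column equals the full span of the gene for 85.4% of genes, so no level was compared between genes per length. GRCm38 is the genome build that the submitters' notes name, and neither the aligner nor the counting settings, strand included, were stated in the sources used. Names and coordinates follow GENCODE M21.

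The counts of all 18 ML libraries (WT, Y541S and D542G, giredestrant and vehicle, 3 libraries each) were fitted in 1 model in edgeR 4.0.16 (R 4.3.3): filterByExpr by group, which left 17181 genes, TMM scaling, and the quasi-likelihood F test for giredestrant minus vehicle and for the differences between genotypes. Adjusted p-values come from this fit unless an alternative or a left-out library is named, adjusted by Benjamini-Hochberg over all genes, and a gene was called at an adjusted p under 0.05. Each SE was taken as the size of the log2 ratio over the root of its F value. Levels are CPM with TMM factors over the 18 libraries, and single-library log2 differences used a prior count of 2. An exact permutation test of 3 against 3 libraries cannot give a p below 0.1. The fit was tested on simulated counts, drawn with spreads that edgeR itself had estimated and with few genes changed. DESeq2 had a larger share of false calls than edgeR there, so its larger counts need care. That setting differs from these data and could favor edgeR, so it does not decide between the methods.

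Genes were named by rule: Esr1; the 12 largest rises and 12 largest falls with a mean of at least 10 CPM and groups that did not overlap; for each of 30 lists up to 4 called members and the uncalled member with the highest mean; the milk protein list; the 10 genes of widest range between giredestrant libraries; and 6 genes in each direction of each difference of effects. Not all of them are described, and a few genes are not reported here. Prom1, Nfib, Erbb2 and Erbb3 were named after their values were seen. The members and lists were chosen with earlier results of these data known. Alternatives were DESeq2 1.42.0, other scalings, no filter, the 6 libraries alone, all 51 libraries, a replicate term, and leaving out libraries.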

Additional observations from a re-analysis of the deposited data

Results flagged for a closer look

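Effects of giredestrant that differed between Y541S and WT ML, by the test of the difference itself, numbered 994. Each value here is the log2 ratio in Y541S minus that in WT, called at an adjusted p under 0.05 in edgeR. Among genes of the estrogen receptor response it was 5.09 for Greb1, 5.06 for Ptpn5 and 2.01 for Igfbp4. Among milk and lipid genes it was 4.81 for Pigr, 3.75 for Olah, 1.09 for Acly and 0.78 for Srebf2, which encodes a regulator of cholesterol synthesis. Genes of the endothelial list gave 2.66 for Kdr, 2.50 for Pecam1 and 2.26 for Tek. The selectin genes Sele and Selp, which are not on that list, gave 3.94 and 4.47. Fbn1, a fibrillin gene of connective tissue, gave 3.97, and Jag2, a Notch ligand, gave 2.66. Chaperone and stress genes of the endoplasmic reticulum gave 1.53 for Hspa5 and 1.74 for Herpud1. Cenpf gave 1.98, Krt6a, a keratin of stressed epithelium, 4.99, Bpifc 3.97 and Tmem86a 3.05 (2.01 without Y541S giredestrant 1). Effects were more negative in Y541S for Upk3a (-6.13), Nrxn3 (-8.63), Kcnk16 (-8.18) and Nrg4, a ligand of ErbB4 (-4.25). The WT vehicle libraries averaged 0.0144 CPM for Kcnk16, so its fitted difference depends on the prior count and is no bound. The calls for Igfbp4, Olah, Acly, Tek, Sele, Fbn1, Cenpf, Srebf2, Jag2, Upk3a and Tmem86a were lost under at least 1 alternative, with the highest adjusted p between 0.0517 for Tek and 0.151 for Cenpf.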

How the results depend on the processing

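Of 1470 values for 105 genes under the alternatives, 1319 kept direction and call, 115 lost the call, 17 gained one and 19 changed sign, and 35 of 79 called genes kept the call throughout. The genes called in Y541S numbered 2790 in the 6 libraries alone and 1238 without giredestrant 1 and 2, and between 2395 and 3912 with 1 library left out. The difference from WT gave 1895 genes in DESeq2 and 518 to 1145 with 1 library left out; that from D542G gave 635 in DESeq2, 63 with all 51 libraries and 0 to 117 with 1 library left out. Without giredestrant 1 and 2 the log2 ratio was -0.19 for Calca, -0.16 for Csn1s1, -3.37 for Csn1s2a, -1.53 for Csn2, -0.63 for Thrsp, -0.0695 for Acly, -0.12 for Hspa5, 0.0701 for Krt19, -10.35 for Pnmt, -4.42 for Lgi2 and -4.23 for Mgat4c, opposite in sign to the value from all libraries. With 1 library left out the range spanned 0 for Ltf (-0.15 to 1.43), Vwf (-0.71 to 0.10), Top2a (-0.0082 to 0.41), Krt6a (-0.96 to 0.66), Pnmt (-1.11 to 1.03), Lgi2 (-0.33 to 2.66) and Fgb (-0.76 to 4.32). The cause was not tested. Deviations of giredestrant and vehicle libraries of the same number correlated at -0.013, 0.072 and 0.399 across genes, and only number 3 correlated best with its own. With 3 libraries a group the deviations are bound together, so this check cannot exclude that the replicate numbers pair the libraries. With a replicate block 4009 genes were called, and Csn2 (adjusted p = 0.0832), Csn1s2a (0.0635), Csn1s1 (0.0556), Spp1 (0.0619) and Pgr (0.0597) were not. Of the milk protein list 5 members were called as higher with the block. Giredestrant 1 was the shallowest library, and power at low counts was not tested.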
